A study of Mus musculus with 20 samples.

Results

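Glucagon alone was set against control in mouse liver, with every gene read in the 4 libraries labelled Gluc and the 4 labelled Control, which are 8 of the 20 libraries of the series. The libraries were chosen by their treatment label, so no measured value entered the choice. Per the series' design text the mice were male, ate a western diet and received their treatment every day for 16 days, and each library holds 1 mouse. The control mice were labelled only as Control, so their vehicle, and the strain, age, genotype, dose and hour of tissue collection of both groups, were not stated in what was used here. Of the other groups (T3, glucagon with T3, and a group coded Cp, 4 libraries each) glucagon with T3 is used for a few values at the end.

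Glucagon is released from pancreatic alpha cells and acts on hepatocytes through its receptor, which couples to a stimulatory G protein and adenylyl cyclase. The cAMP that is made activates protein kinase A, which phosphorylates the transcription factor CREB and releases its CRTC coactivators from the salt-inducible kinases (SIKs). CREB then binds cAMP response elements in target promoters, and in the liver the hormone is known for glucose output, amino acid breakdown with urea formation, and fat oxidation during fasting.

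Levels are given as normalised CPM, that is counts scaled to library size by TMM, and changes as log2 of glucagon over control ± SE. Total counts ran from 11562213 to 23195658 in the controls and from 11988039 to 19931718 after glucagon, so that 3 counts correspond to 0.145 to 0.302 CPM in these libraries. Genes with a Benjamini-Hochberg adjusted p below 0.05 over 12907 genes were called, from a quasi-likelihood fit in edgeR whose spread comes from all 20 libraries. Of these genes 2732 (21.2%) were called, 1191 higher (9.23%) and 1541 lower (11.9%) after glucagon, and the median log2 change of all genes was -0.09. The controls varied more than the glucagon livers, with a biological coefficient of variation of 43.2% against 25.8%. It was 19.2% in T3, 18.9% in glucagon with T3 and 22.6% in Cp. Because the fit of 20 libraries shares its spread with these less variable groups, its SEs and adjusted p may be too small for a contrast with control. A fit of the 8 libraries alone called 613 genes higher (4.92%) and 363 lower (2.91%), so the higher share went from 43.6% to 62.8% of the calls. Control 2 and glucagon 3 stood apart in skeletal muscle genes, with summed levels of 1070 and 4086 CPM over 20 markers against 36.8 to 101 CPM in the other 6 libraries. A fit without these 2 libraries called 1040 genes higher (8.1%) and 1142 lower (8.89%). Genes called in all 3 of these fits in the same direction numbered 600 higher (4.65% of genes tested) and 355 lower (2.75%), and most of what follows is about them. The 4 control and 4 glucagon values did not overlap in 8.7% of genes on the higher side and 7.88% on the lower side.

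The tissue label was read against marker genes. Alb, serum albumin, stood at 104201 to 226166 CPM in the controls and 132997 to 201668 after glucagon. None of the 9 hepatocyte markers tested was called, with 0 called higher and 0 lower in the fit of 8 libraries as well (edgeR), 1 higher by DESeq2 and 2 higher at an unadjusted p under 0.05. Counts of Ass1, which the liver is known to express strongly, lay between 0.098 and 1.49 CPM, and the reason for this low count was not tested.

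Few genes of the receptor chain were called. Gcgr, the glucagon receptor, had 380, 199, 455 and 362 CPM in the 4 controls and 295, 274, 248 and 308 CPM after glucagon. Its groups overlapped, and the change of -0.31 ± 0.22 was not called (edgeR adjusted p = 0.345). Of 29 genes from the receptor to the CREB coactivators 3 were called higher and 1 lower, beside 9.23% and 11.9% of all genes, with a median of 0.15. Only Itpr1, a calcium release channel of the endoplasmic reticulum that protein kinase A phosphorylates, was called in all 3 fits (0.77 ± 0.16). Adcy6, an adenylyl cyclase (-0.87 ± 0.22), and Rapgef4, the cAMP-bound exchange factor EPAC2 (0.74 ± 0.20), were called in the fit of 20 libraries and not in that of 8 (adjusted p = 0.0853 and 0.12). Creb1 (-0.36 ± 0.19) and its coactivator Crtc2 (0.38 ± 0.18) were not called, although Crtc2 was without control 3 (0.63, adjusted p = 0.00411).

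Most early target genes of cAMP and CREB rose after glucagon. Of the 21 tested members of a list of such targets 14 rose (66.7%, beside 9.23% of all genes) and 1 fell (4.76%, beside 11.9%). In all 3 fits 13 rose and 1 fell, and the list's median log2 change was 2.37. CREB is known to bind the cAMP response element, and the promoter sequences of 5 members that rose are shown to give the matches to it near their starts. Only called members whose promoter holds a match were picked, so a match in all 5 was fixed by the choice. The promoters of Irs2 and Pde4d, which also rose, hold none. The sequences shown are RefSeq promoters on GRCm38.p6, 250 bases before to 50 after the start, written in the gene's direction. Capitals mark every short element TGACG or its reverse complement CGTCA, and so also the full palindrome TGACGTCA of Dusp1, in which both overlap.
Nr4a1: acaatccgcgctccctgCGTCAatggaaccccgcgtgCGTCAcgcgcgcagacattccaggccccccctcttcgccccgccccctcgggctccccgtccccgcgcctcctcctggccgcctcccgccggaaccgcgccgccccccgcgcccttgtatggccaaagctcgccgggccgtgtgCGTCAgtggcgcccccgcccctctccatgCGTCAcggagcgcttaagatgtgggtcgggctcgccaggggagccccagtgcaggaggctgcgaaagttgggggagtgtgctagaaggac
Nr4a2: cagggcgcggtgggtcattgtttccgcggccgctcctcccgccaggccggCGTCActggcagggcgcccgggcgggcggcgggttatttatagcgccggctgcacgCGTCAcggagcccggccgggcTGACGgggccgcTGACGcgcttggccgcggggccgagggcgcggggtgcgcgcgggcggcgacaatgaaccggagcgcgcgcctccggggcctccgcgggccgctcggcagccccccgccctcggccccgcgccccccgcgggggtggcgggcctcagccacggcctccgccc
Nr4a3: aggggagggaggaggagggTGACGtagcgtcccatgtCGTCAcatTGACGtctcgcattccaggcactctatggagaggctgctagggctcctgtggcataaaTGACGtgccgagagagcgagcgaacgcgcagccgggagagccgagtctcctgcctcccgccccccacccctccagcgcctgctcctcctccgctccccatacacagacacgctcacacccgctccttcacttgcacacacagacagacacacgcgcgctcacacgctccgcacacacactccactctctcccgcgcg
Ppargc1a: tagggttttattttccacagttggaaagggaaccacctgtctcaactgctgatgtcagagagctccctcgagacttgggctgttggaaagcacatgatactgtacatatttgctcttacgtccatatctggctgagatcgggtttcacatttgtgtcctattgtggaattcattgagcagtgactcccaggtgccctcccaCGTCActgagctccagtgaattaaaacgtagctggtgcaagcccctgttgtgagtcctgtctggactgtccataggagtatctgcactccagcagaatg
Dusp1: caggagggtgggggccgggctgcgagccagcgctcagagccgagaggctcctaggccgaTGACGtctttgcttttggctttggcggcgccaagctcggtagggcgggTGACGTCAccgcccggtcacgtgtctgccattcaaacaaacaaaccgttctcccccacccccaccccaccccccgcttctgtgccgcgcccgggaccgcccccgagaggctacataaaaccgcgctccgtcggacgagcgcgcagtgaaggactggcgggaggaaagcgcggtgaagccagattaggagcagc

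The windows lie at chr15:101266596-101266895 (plus strand), chr2:57123954-57124253 (minus strand), chr4:48045055-48045354 (plus strand), chr5:51567676-51567975 (minus strand) and chr17:26508423-26508722 (minus strand). Each of the 3 Nr4a windows holds 4 short elements. In Nr4a1 their first bases lie 233, 213, 69 and 40 bases before the start, in Nr4a2 at 200, 144, 123 and 111, and in Nr4a3 at 231, 213, 205 and 147. Ppargc1a has a single short element 49 bases before the start, and in Dusp1 the palindrome begins 143 bases and another short element 191 bases before it. Of 12 early targets called higher with a RefSeq promoter, 10 (83.3%) hold the short element on either strand. Among all 17 tested members of the list with such a promoter, called or not, 14 (82.4%) hold it. The share thus belongs to the list as chosen and does not set its risers apart. The same letters occur in 34.4% of the 9253 tested genes with a promoter, in 44.4% of genes called higher, in 27.4% of those called lower and in 34.3% of those not called. The palindrome occurs in 3.42% of tested genes, 6.11% of those called higher and 2.31% of those called lower. A match describes the letters only, and binding was not measured.

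The NR4A receptors, orphan nuclear receptors that act early after hormone signals, led the list. Nr4a3 had 0.214, 0.628, 0.588 and 0.302 CPM in the controls and 135, 193, 170 and 137 CPM after glucagon. The groups did not overlap, and every control lay at a few counts, so the log2 change of 8.5 ± 0.43 (edgeR adjusted p = 5.22e-11) rests on 27 counts over the 4 controls. Nr4a2 went from 1.21 to 2.09 CPM to 57.2 to 117 CPM (5.78 ± 0.28, adjusted p = 3.94e-11), and Nr4a1 from 9.88 to 21.7 to 73.5 to 200 CPM (2.95 ± 0.35).

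Ppargc1a encodes PGC-1alpha, a coactivator of gluconeogenic and mitochondrial genes. Its levels were 13.5, 11.2, 9.41 and 8.97 CPM in the controls and 200, 190.0, 166 and 156 CPM after glucagon. The groups lay far apart with little spread within either, a change of 4.04 ± 0.20 (edgeR adjusted p = 4.36e-11). Klf4, a zinc finger transcription factor, had 2.25 to 8.4 CPM against 45.1 to 68.5 CPM (3.58 ± 0.34). Dusp1, a phosphatase that switches off MAP kinases, went from 63.6 to 102 CPM to 237 to 810.0 CPM (2.50 ± 0.32), and Irs2, the insulin receptor substrate that links insulin to PI3-kinase, from 10.3 to 41.1 to 88.5 to 218 CPM (2.64 ± 0.45). Nfil3, a repressor that binds clock-controlled promoters, rose by 2.51 ± 0.25. The member that fell was Gadd45a, a stress-induced growth arrest gene, at 6.96 to 15.1 CPM in the controls and 2.21 to 6.62 CPM after glucagon (-1.67 ± 0.38).

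Fos, Atf3, Egr1, Btg2, Junb and Gem were not called. The first 4 of these are immediate early genes or stress-induced factors that stood high in control 2. Atf3 was at 2.67, 53.5, 1.67 and 5.28 CPM in the controls and 34.3, 23.7, 21.3 and 15.9 CPM after glucagon. Only control 2 overlapped with the glucagon livers. Without control 2 the change of Atf3 was 2.89 (adjusted p = 0.000118), that of Fos 2.37 (0.0315) and that of Btg2 1.61 (0.0089), and without control 2 and glucagon 3 the list had 17 members higher and 1 lower.

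**Figure D1:**
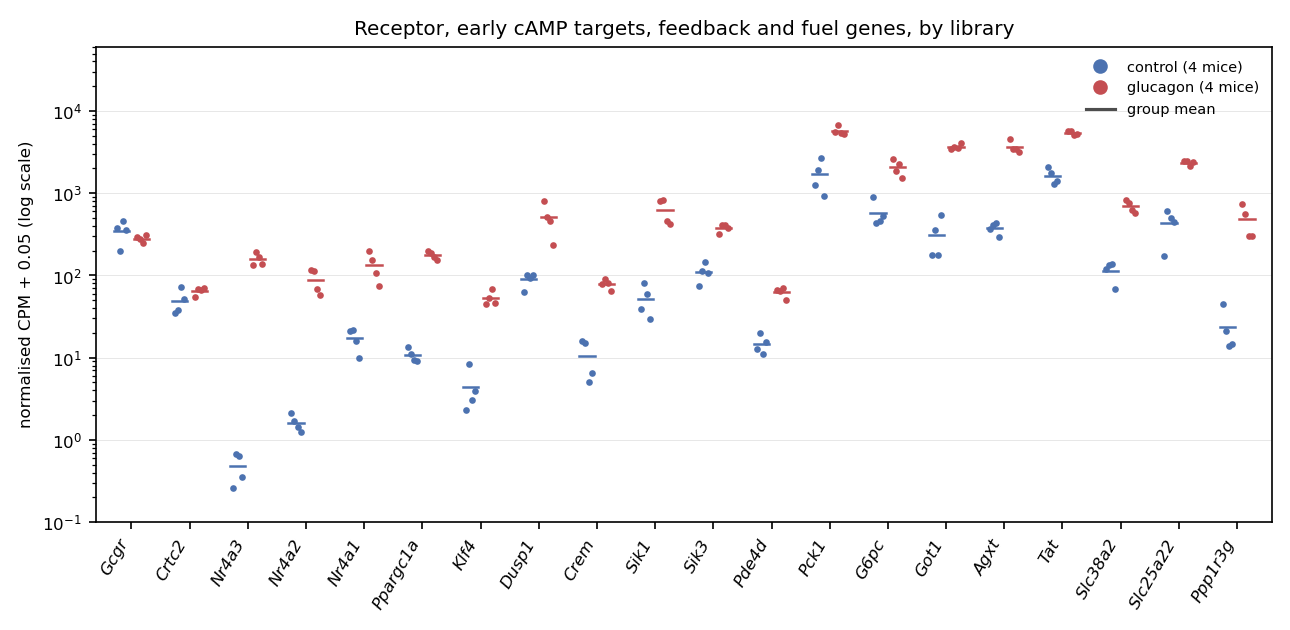
Normalised CPM (plus 0.05, log axis) of 20 genes of the receptor chain, the early cAMP targets, their feedback and fuel metabolism in each of the 4 control and 4 glucagon livers, with lines at the group means. Gcgr and Crtc2 overlap between the groups, while the 4 glucagon values of Nr4a3, at 135 to 193 CPM, lie far above the controls.

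Part of the genes that damp the cAMP signal were called higher, and 5 of these (Sik1, Crem, Pde4b, Pde4d and Rgs2) are also in the list of early targets. Of 19 feedback genes 9 were called higher (47.4%, beside 9.23% of all genes) and 0 lower (edgeR, also 0 lower by DESeq2, and 1 lower at an unadjusted p under 0.05). In all 3 fits 7 were called higher. The median was 0.79, or 0.26 without control 2 and glucagon 3. Sik1, the salt-inducible kinase that holds CRTC coactivators in the cytoplasm, had 39.4, 81.5, 59.1 and 29.3 CPM in the controls and 794, 817, 456 and 422 CPM after glucagon. All glucagon livers lay above all controls (3.57 ± 0.32, adjusted p = 1.14e-07). Its relatives Sik3 (1.79 ± 0.18) and Sik2 (0.79 ± 0.17) rose as well. Crem, which also encodes the repressor ICER, went from 5.0 to 15.7 CPM to 64.9 to 89.8 CPM (2.88 ± 0.33). Among phosphodiesterases, which break down cAMP, Pde4d rose by 2.09 ± 0.21 and Pde7b by 1.21 ± 0.29. Pde4b changed by 1.17 ± 0.32 but was not called without glucagon 1 (0.90, adjusted p = 0.0651). Rgs2, which speeds the turning off of G proteins, was called in the fit of 20 libraries (2.37 ± 0.53) and not in that of 8 (adjusted p = 0.0656).

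Part of the glucose production genes rose. Of 23 gluconeogenesis enzymes and regulators 9 were called higher (39.1%, beside 9.23% of all genes) and 1 lower (4.35%, beside 11.9%). In all 3 fits 7 were called higher and 0 lower, and the median was 0.30. Pck1, phosphoenolpyruvate carboxykinase (chr2:173153048-173159273 in GENCODE M21 on GRCm38), had 1253, 1941, 2663 and 916 CPM in the controls and 5601, 6757, 5379 and 5314 CPM after glucagon. The lowest glucagon liver stood above the highest control (1.77 ± 0.28, edgeR adjusted p = 0.000147). G6pc, the catalytic subunit of glucose-6-phosphatase, was at 906, 431, 459 and 533 CPM against 2572, 1859, 2291 and 1517 CPM (1.82 ± 0.23, adjusted p = 8.13e-06). The transcription factors Cebpb (1.48 ± 0.25) and Foxo1 (1.01 ± 0.19), which act on both promoters, rose too. Fbp1, fructose-1,6-bisphosphatase, was called in the fit of 20 libraries (0.59 ± 0.19) but not without control 2, control 3, glucagon 1, glucagon 3 or glucagon 4 (adjusted p of 0.0606 without control 3 to 0.0885 without glucagon 1).

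Glycolysis and glycogen genes were mixed. Of 17 glycolysis genes 4 were called higher and 1 lower, 2 and 1 in all 3 fits, with a median of 0.42. The calls are 23.5% and 5.88%, beside 9.23% and 11.9% of all genes. Without control 2 and glucagon 3 there were 2 higher and 1 lower, and the median was 0.17. Pfkfb2, which makes and degrades the glycolytic activator fructose-2,6-bisphosphate, rose by 1.64 ± 0.19. Gapdh also rose (1.40 ± 0.25), but at 2.55 to 12.4 CPM its counts are low for this gene, which has many pseudogene copies that can share its reads. Ppp1r3g, a glycogen-targeting subunit of protein phosphatase 1, had 44.4, 20.9, 13.7 and 14.5 CPM in the controls and 747, 566, 306 and 299 CPM after glucagon. Its 4.35 ± 0.49 was the highest change of the 14 glycogen genes. Of these 1 was called higher (7.14%) and 2 lower (14.3%), near the shares of all genes. Without control 2 and glucagon 3, 4 were lower, beside 8.89% of all genes in that fit. The other gene called lower in all 20 libraries besides Ppp1r3c was Phka2, a regulatory subunit of phosphorylase kinase (-0.58 ± 0.18), which the fit of 8 libraries did not call (adjusted p = 0.142), nor fits without control 1, 3 or 4 or glucagon 2, 3 or 4 (0.0502 to 0.0774). Ppp1r3c, another such subunit, was at 33.4, 7.97, 30.5 and 21.7 CPM against 2.92, 1.94, 11.7 and 3.02 CPM. Control 2 and glucagon 3 overlapped (-2.25 ± 0.53), the fit of 8 libraries did not call it (adjusted p = 0.0506), and without control 2 and glucagon 3 the change was -3.44. Pygl, glycogen phosphorylase, and Gys2, glycogen synthase, changed by 0.44 ± 0.21 and 0.14 ± 0.19 and were not called.

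Amino acid use showed large changes in a few enzymes. Of 59 aminotransferases and breakdown enzymes 10 were called higher (16.9%, beside 9.23% of all genes) and 2 lower (3.39%, beside 11.9%). In all 3 fits 9 were called higher and 0 lower, and the median was 0.12. Got1, cytosolic aspartate aminotransferase, had 175, 354, 176 and 538 CPM in the controls and 3444, 3632, 3515 and 4083 CPM after glucagon. The glucagon livers lay within a narrow band far above the controls (3.56 ± 0.31, edgeR adjusted p = 6.66e-08). Agxt, alanine-glyoxylate aminotransferase, went from 371, 408, 434 and 290.0 CPM to 4512, 3488, 3411 and 3129 CPM (3.27 ± 0.31). Tat, tyrosine aminotransferase, rose from 1308 to 2077 CPM to 5130 to 5758 CPM (1.73 ± 0.22), and Cth, which splits cystathionine to cysteine, by 1.39 ± 0.24. Smaller rises were seen in the serine dehydratases Sds (1.06 ± 0.29) and Sdsl (1.39 ± 0.26), in Mat1a, which makes S-adenosylmethionine (0.88 ± 0.21), and in Gpt2, an alanine aminotransferase (0.77 ± 0.15). Tdo2, which opens the ring of tryptophan, was called lower (-0.94 ± 0.30), but without control 1, which held 535 CPM, it changed by -0.31 (adjusted p = 0.249), and it was not called without any 1 of the glucagon livers (0.0562 to 0.076) or with the sequencing lane as a replicate block (-0.80, 0.0501).

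Carriers changed at both the cell surface and the mitochondrion. Slc25a22, a mitochondrial glutamate carrier, had 173, 616, 494 and 451 CPM in the controls and 2488, 2433, 2118 and 2417 CPM after glucagon. No library overlapped (2.45 ± 0.28, adjusted p = 2.48e-06). Slc38a2, the neutral amino acid transporter SNAT2, went from 67.8 to 137 CPM to 578 to 818 CPM (2.60 ± 0.20). Slc16a10, a carrier of aromatic amino acids (1.70 ± 0.17), Slc3a2, the heavy chain shared by several transporters (1.61 ± 0.24), and Slc7a2, which imports arginine and lysine (1.29 ± 0.19), also rose. Slc36a1, a lysosomal carrier, fell by 1.08 on the log2 scale (SE 0.20). In all 7 of 28 amino acid transporters were called higher (25%, beside 9.23% of all genes) and 4 lower (14.3%, beside 11.9%), 5 and 1 in all 3 fits.

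In the urea cycle 2 of 14 genes were called higher, both in all 3 fits, and 1 lower. These are 14.3% and 7.14%, beside 9.23% and 11.9% of all genes. The lower one was Aqp9, a glycerol and urea channel (-0.73 ± 0.18), which the fit of 8 libraries did not call (adjusted p = 0.108). Slc25a15, the ornithine carrier of the inner mitochondrial membrane, was at 162, 141, 117 and 125 CPM in the controls and 482, 471, 458 and 479 CPM after glucagon. Each glucagon liver held well above the highest control (1.79 ± 0.18, adjusted p = 5.58e-07). Asl, argininosuccinate lyase, rose by 1.32 ± 0.18. Cps1, the entry enzyme, changed by 0.58 ± 0.21 and was not called (adjusted p = 0.0534), but was with the sequencing lane as a replicate block (0.60, adjusted p = 0.0424) and without control 1 (0.77, 0.013).

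Fat oxidation genes were not called. Of 26 genes of mitochondrial fatty acid oxidation and ketogenesis 0 were called by edgeR in either direction, 2 were higher at an unadjusted p under 0.05, and DESeq2 called 1 higher, with a median of 0.09. Cpt1a, the gatekeeper of fatty acid entry into mitochondria, was at 504, 501, 561 and 534 CPM in the controls and 582, 576, 512 and 547 CPM after glucagon. Its groups overlapped (0.08 ± 0.14, adjusted p = 0.727). Hadha, part of the trifunctional protein (0.33 ± 0.17), was called only without control 3 among the libraries left out in turn (0.51, adjusted p = 0.0184). The same held for Pdk2, a kinase that inhibits pyruvate dehydrogenase (0.46 ± 0.22, adjusted p = 0.0354 without control 3), and the gene DESeq2 called was Acadl, long-chain acyl-CoA dehydrogenase (0.37 ± 0.15 in edgeR).

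Lipid droplet and triglyceride genes changed one by one. Lpin1, the phosphatidate phosphatase lipin 1, had 231, 133, 151 and 242 CPM in the controls and 1211, 1476, 979 and 1113 CPM after glucagon. Its groups lay apart (2.66 ± 0.29, edgeR adjusted p = 1.42e-06). Dgat1, which adds the last acyl chain of triglyceride, rose by 1.33 ± 0.18, and Pparg, a lipogenic nuclear receptor, fell from 17.4 to 27.6 CPM to 7.63 to 12.0 CPM (-1.27 ± 0.26). Of the droplet coat proteins Plin4 went from 4.49 to 13.6 CPM to 74.1 to 90.7 CPM (3.29 ± 0.34) and Plin5 rose by 0.87 ± 0.16, while Plin2 fell from 247 to 410.0 CPM to 110.0 to 229 CPM (-1.13 ± 0.23). The lipogenic enzymes Fasn (0.22 ± 0.49) and Scd1 (0.32 ± 0.34) and their regulator Srebf1 (0.51 ± 0.35) were not called. Acly, which supplies cytosolic acetyl-CoA, was called in the fit of 20 libraries (1.37 ± 0.31) and not in that of 8 (adjusted p = 0.0546). Elovl6 (1.49 ± 0.35) and Acacb (0.94) were also called higher in the fit of 20 libraries and not in all 3. Of 35 genes of fatty acid and triglyceride synthesis 7 were called higher and 3 lower, 3 and 1 in all 3 fits. These are 20% and 8.57%, beside 9.23% and 11.9% of all genes.

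Within cholesterol synthesis neighbouring steps went opposite ways. Pmvk, phosphomevalonate kinase, had 15.2, 14.8, 17.8 and 30.2 CPM in the controls and 308, 288, 170.0 and 228 CPM after glucagon. No glucagon value reached the controls (3.67 ± 0.35, adjusted p = 2.5e-07). Mvk, the kinase of the step before it, rose from 8.72 to 21 CPM to 39.7 to 75.7 CPM (1.85 ± 0.30). Hmgcs1, which acts upstream of both, fell from 38.8 to 74.0 CPM to 18.8 to 28.9 CPM (-1.09 ± 0.21). Of 30 genes of synthesis and uptake 7 were called higher (23.3%, beside 9.23% of all genes) and 5 lower (16.7%, beside 11.9%). In all 3 fits 4 were called higher and 1 lower, and the median was -0.12.

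A few bile acid genes were lower, among them the key regulators. Cyp7a1, the cholesterol 7-alpha-hydroxylase that starts bile acid synthesis, had 114, 86.4, 72.5 and 109 CPM in the controls and 12.3, 7.24, 12.0 and 48.8 CPM after glucagon. The groups did not overlap, though glucagon 4 lay near the controls (-2.26 ± 0.45, edgeR adjusted p = 0.00137). Nr1h4, the bile acid receptor FXR, was at 474, 119, 180.0 and 197 CPM against 76.7, 61.2, 68.5 and 78.1 CPM (-1.77 ± 0.29). Nr0b2, which encodes the FXR target SHP, a repressor of Cyp7a1, was lower as well, at 39.9 to 108 CPM against 7.37 to 17.3 CPM (-2.32 ± 0.43). Cyp39a1, an oxysterol 7-alpha-hydroxylase, rose by 1.45 ± 0.29, while Cyp8b1, which sets the cholic acid share, was not called (-0.25 ± 0.38). Of 28 genes 5 were called lower (17.9%, beside 11.9% of all genes) and 2 higher (7.14%, beside 9.23%), 3 and 1 in all 3 fits. Without control 2 and glucagon 3, 8 were lower, beside 8.89% of all genes in that fit.

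**Figure D2:**
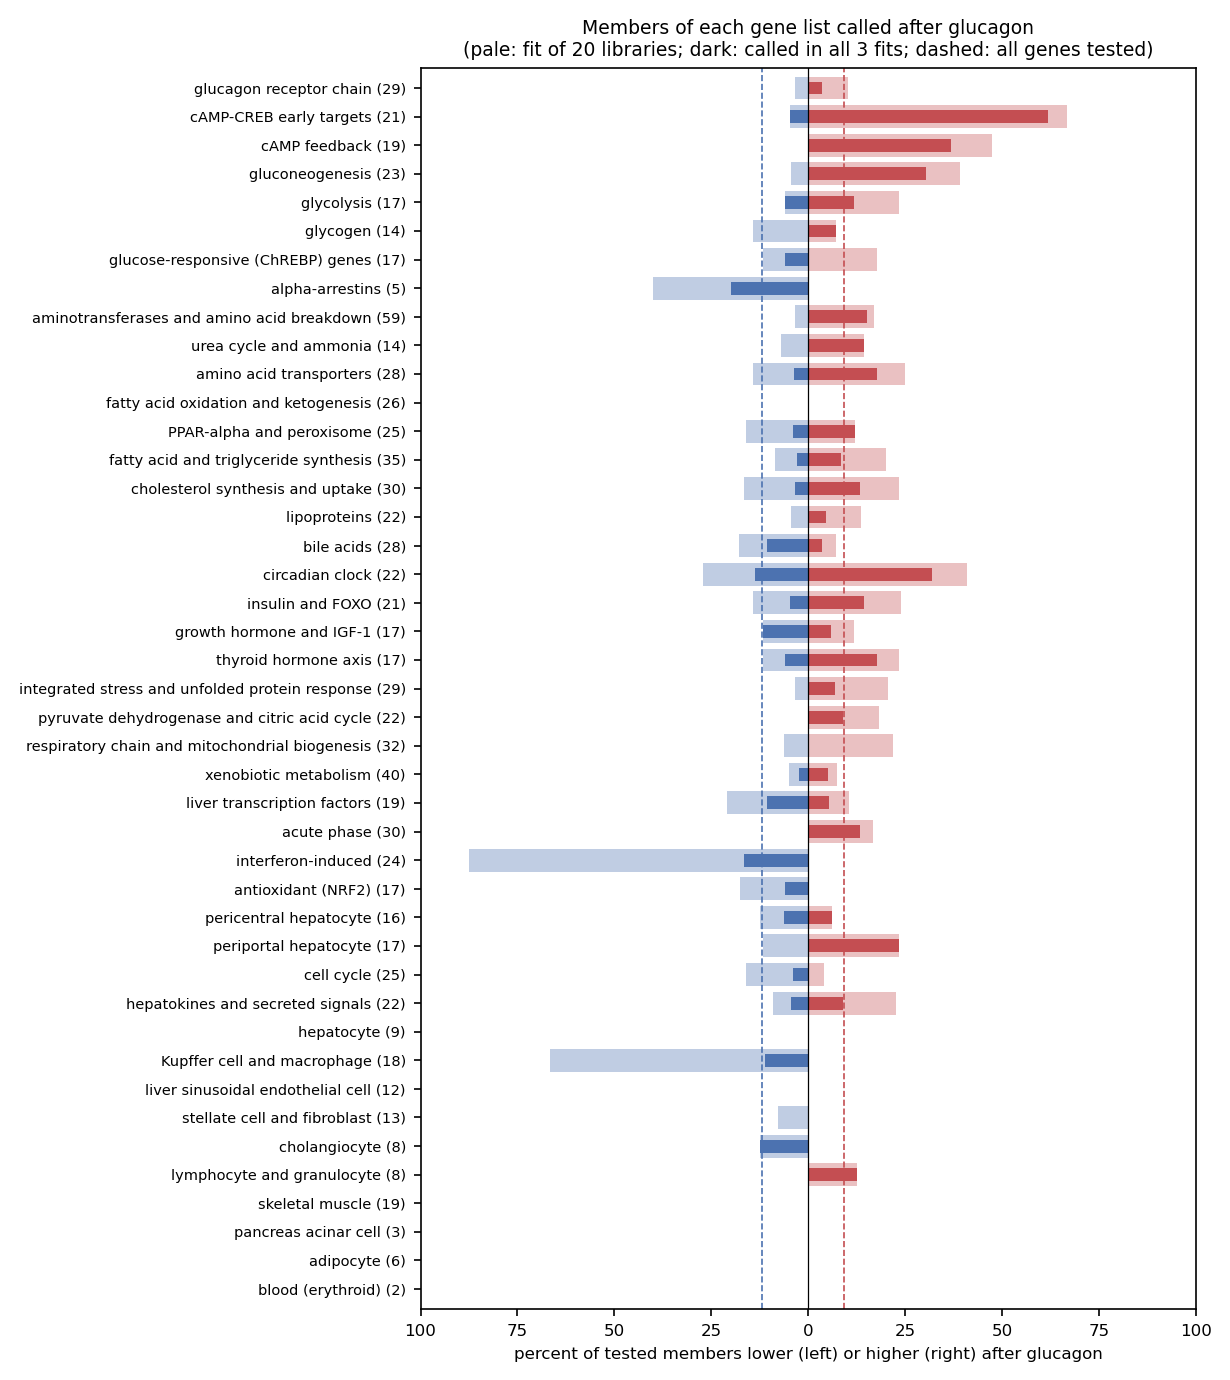
Percent of the tested members of each gene list (number in brackets) called higher (right) or lower (left) after glucagon, pale for the fit of 20 libraries and dark for genes called in all 3 fits, with dashed lines at 9.23% and 11.9% for all genes. The early cAMP targets, at 66.7% higher, and the interferon-induced genes, at 87.5% lower in the pale bars, reach farthest from the dashed lines.

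Circadian clock genes moved in both directions. In the core clock Arntl (BMAL1) and its partners drive the Per, Cry and Nr1d1 genes, whose products in turn repress Arntl or its activity. Of 22 clock genes 9 were called higher (40.9%, beside 9.23% of all genes) and 6 lower (27.3%, beside 11.9%), 7 and 3 in all 3 fits. Arntl had 7.22, 12.0, 4.31 and 5.73 CPM in the controls and 39.3, 29.7, 39.2 and 53.9 CPM after glucagon. The groups lay apart (2.45 ± 0.27, edgeR adjusted p = 1.57e-06). Nr1d1, the REV-ERB-alpha repressor of Arntl, had 109, 187, 309 and 265 CPM against 25.3, 34.6, 48.8 and 39.8 CPM (-2.55 ± 0.30, adjusted p = 4.42e-06). The repressors of the BMAL1 complex Cry1 (2.94 ± 0.25), Per2 (2.62 ± 0.27), Cry2 (1.92 ± 0.21) and Per1 (1.44 ± 0.32) rose, and Per3 fell (-1.52 ± 0.31). Dbp, a clock output transcription factor, fell from 189, 214, 667 and 416 CPM to 47.3, 102, 71.9 and 47.9 CPM (-2.46 ± 0.36), and the ubiquitin protease Usp2 rose by 1.47 ± 0.26. Clock itself changed by -0.57 ± 0.23 and was not called except without control 4 (-0.74, adjusted p = 0.0273). With no hour of tissue collection stated, a difference in hour between the groups cannot be told apart from the treatment.

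**Figure D3:**
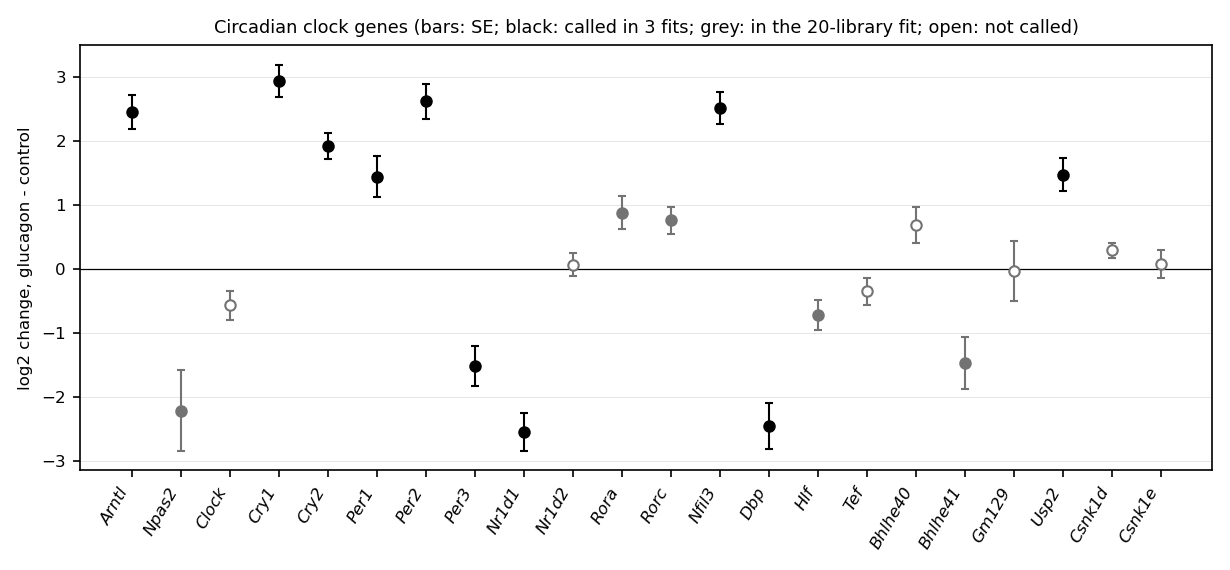
Log2 change from control to glucagon of the 22 clock genes (points, with bars for SE), black where called in all 3 fits, grey where called in the fit of 20 libraries and open where not called. Arntl, Cry1, Cry2, Per1, Per2, Nfil3 and Usp2 lie above 0 and Nr1d1, Dbp and Per3 below it.

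Insulin, growth hormone and stress signalling genes changed in part. Of 21 insulin and FOXO genes 5 were called higher (23.8%) and 3 lower (14.3%), 3 and 1 in all 3 fits. Of 17 growth hormone and IGF-1 genes 2 were called higher and 2 lower (11.8% each), with a median of 0.10. This is near the 9.23% and 11.9% of all genes. Of 29 stress response genes 6 were called higher (20.7%) and 1 lower (3.45%), 2 and 0 in all 3 fits. Besides Irs2, Pik3r1, the regulatory subunit of PI3-kinase, rose by 1.24 ± 0.18. Stat5a, a transducer of growth hormone signals, fell from 8.53 to 12.2 CPM to 2.72 to 4.89 CPM (-1.48 ± 0.17), and Socs3, an inhibitor of cytokine and growth hormone signalling, rose by 1.87 ± 0.35, with glucagon 3 at 19.9 CPM close to the highest control at 19.1 CPM. Stat3, the transducer of interleukin-6 signals, rose by 1.13 ± 0.25. Igfbp1, a secreted binder of insulin-like growth factors, had 46.8, 346, 26.6 and 30.4 CPM in the controls and 918, 377, 212 and 236 CPM after glucagon. Control 2 alone reached into the glucagon range. The change of 1.95 ± 0.68 was called (adjusted p = 0.0452), was 3.88 (2.79e-05) without control 2 and glucagon 3, and was not called without control 1, control 3, control 4, glucagon 1 or glucagon 2, from 0.0658 without glucagon 2 to 0.186 without glucagon 1. Among stress genes Chac1, which degrades glutathione, rose by 2.29 ± 0.31 and Ddit4, an inhibitor of mTORC1, by 1.96 ± 0.33. Trib3, a pseudokinase target of ATF4, was lower (-1.95 ± 0.54), but not without control 2 (-1.40, adjusted p = 0.0609).

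Secreted signals and their receptors held some of the sharpest single changes. Lepr, the leptin receptor, had 8.77, 4.25, 3.33 and 4.0 CPM in the controls and 95.3, 95.2, 105 and 75.1 CPM after glucagon. All 4 glucagon livers were far above all controls (4.16 ± 0.33, edgeR adjusted p = 2.3e-08). The gene overlaps Leprot at its start, so counts near that end can be uncertain. Inhbe, the activin E subunit, fell from 51.3, 61.4, 80.5 and 113 CPM to 13.2, 6.47, 13.2 and 14.7 CPM (-2.69 ± 0.27). Agt, angiotensinogen, rose by 1.44 ± 0.21. The hormone Fgf21 was at 1.02, 48.8, 6.96 and 2.79 CPM in the controls and 15.8, 11.8, 19.4 and 22.0 CPM after glucagon. Only control 2 exceeded the glucagon livers, so that the change was 0.19 ± 0.70 and not called with it and 2.35 (adjusted p = 0.00305) without it.

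Metallothioneins, which bind zinc, rose. Mt2 had 2.67, 59.7, 5.1 and 32.2 CPM in the controls and 906, 506, 538 and 745 CPM after glucagon. The controls spread widely but did not reach the glucagon livers (4.75 ± 0.90, adjusted p = 0.000826), and Mt1 was similar (4.11 ± 0.83). These neighbours are alike in sequence and can share reads. In the thyroid axis (17 genes) 4 were called higher (23.5%) and 2 lower (11.8%), beside 9.23% and 11.9% of all genes. In all 3 fits 3 were called higher and 1 lower. Besides Slc16a10, these were the T3-responsive genes Bcl3, an NF-kappaB cofactor (1.84 ± 0.36), and Gpd2, mitochondrial glycerol phosphate dehydrogenase (0.74 ± 0.16), and Serpina7, thyroxine-binding globulin, which fell by 1.43 on the log2 scale (SE 0.38). The corepressor Hr (2.14 ± 0.50) and the receptor Thra (-0.58 ± 0.20) were not called in the fit of 8 libraries (adjusted p = 0.0589 and 0.193), and Thra was not with the sequencing lane as a replicate block (0.0642) nor without control 2, 3 or 4 or glucagon 1, 2 or 4 (0.0559 to 0.152). The receptor Thrb (0.00 ± 0.18) and the deiodinase Dio1 (0.33 ± 0.30) were not called. Of 40 xenobiotic genes 3 were called higher and 2 lower, or 8 lower without control 2 and glucagon 3. The 7.5% higher and 5% lower in the fit of 20 libraries lie below the shares of all genes. The 8 lower of 40 stand beside 8.89% of all genes in that fit, and the 6 libraries alone had 4 lower beside 1.63%. Summed, the list had 46687, 13974, 32972 and 32453 CPM in the controls and 24707 to 29953 CPM after glucagon. Only control 2 lay below the glucagon livers. The mean log2 of CPM plus 1 overlapped also elsewhere, with 7.86 in control 3 and 7.98 in glucagon 3. Cyp2b10 rose from 0.294 to 2.51 CPM to 10.7 to 50.5 CPM (4.52 ± 0.94), Por, the electron donor of cytochromes P450, rose by 1.43 ± 0.24, and Cyp3a11 fell from 290.0 to 710.0 CPM to 98.2 to 144 CPM (-2.15 ± 0.37). Reads can be shared within the Cyp2b and Cyp3a families, so these values are uncertain.

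Of 22 citric acid cycle and pyruvate dehydrogenase genes 4 were called higher (18.2%, beside 9.23% of all genes) and 0 lower (edgeR, also 0 lower by DESeq2 and at an unadjusted p under 0.05). In all 3 fits 2 were called higher. Fh1, fumarase, had 265, 134, 102 and 148 CPM in the controls and 350.0, 324, 376 and 365 CPM after glucagon. Every glucagon liver was above every control (1.12 ± 0.26, adjusted p = 0.00475), and Mdh2, mitochondrial malate dehydrogenase, rose by 0.67 ± 0.13. Of 32 genes of the respiratory chain and mitochondrial biogenesis 7 were called higher (21.9%) and 2 lower (6.25%) in the fit of 20 libraries, beside 9.23% and 11.9% of all genes. In that of 8 edgeR called 0 in either direction. DESeq2 on 20 libraries called 10 and 2, and 13 and 2 had an unadjusted p under 0.05 in edgeR. Of 25 genes tied to PPAR-alpha, a nuclear receptor of fat oxidation, 3 were called higher and 4 lower, 3 and 1 in all 3 fits. These are 12% and 16%, beside 9.23% and 11.9% of all genes. Ppara itself (-0.74 ± 0.21), the peroxisomal transporter Abcd2 (-1.77 ± 0.42) and the pantetheinase Vnn1 (-1.05 ± 0.35) were lower in the fit of 20 libraries and not in all 3. Of the risers besides Plin4 and Plin5, Slc22a5, the carnitine transporter, rose by 1.18 ± 0.23. Nfe2l2, the antioxidant regulator NRF2, fell from 99.7 to 158 CPM to 64.5 to 77.9 CPM (-0.78 ± 0.14), and Lipg, endothelial lipase, rose from 14.9 to 26.3 CPM to 47.4 to 59.4 CPM (1.41 ± 0.16).

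Some markers of the hepatocyte zones were called in the fit of 20 libraries. Periportal genes (17 tested) had 4 called higher (23.5%), each in all 3 fits, and 2 lower (11.8%), with 0 lower without control 2 and glucagon 3. The 4 were Agxt2l1, an ethanolamine phosphate lyase (3.12 ± 0.39), with Pck1, Sds and Sdsl. Of the 16 pericentral genes 1 was called higher (6.25%) and 2 lower (12.5%), with a median of -0.34. Without control 2 and glucagon 3, 5 were lower, beside 8.89% of all genes in that fit, with a median of -0.56. A fit of the 6 libraries left called 3 lower, beside 1.63%. Of all genes 9.23% were called higher and 11.9% lower in the fit of 20 libraries. Summed pericentral markers had 27183, 4184, 18075 and 18522 CPM in the controls and 8950 to 12190 CPM after glucagon. Only control 2 lay below the glucagon livers. Summed periportal markers had 9099 to 13403 CPM against 15552 to 18483 CPM, without overlap. Slc22a3, an organic cation transporter, rose by 2.62 ± 0.32 and Rnf43, an inhibitor of Wnt receptors, fell from 21 to 75.3 CPM to 8.28 to 12.8 CPM (-2.22 ± 0.31). The transcription factor Nr2f2 fell (-1.04 ± 0.20), and Hnf4a changed by 0.42 ± 0.20 and was called only without control 3 among the libraries left out in turn (0.67, adjusted p = 0.00828).

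Interferon-induced genes were lower, and the size of this turned on control 2. Of 24 such genes 21 were called lower (87.5%, beside 11.9% of all genes) and 0 higher (edgeR, also 0 higher by DESeq2 and at an unadjusted p under 0.05). The median was -2.48. The summed level of the list was 639, 3732, 841 and 649 CPM in the controls and 616, 577, 450.0 and 704 CPM after glucagon. Control 2 was far above every other library, and the other summed levels overlapped. The mean log2 of CPM plus 1 over the list did not overlap, at 3.57, 6.65, 3.84 and 3.68 in the controls and 2.89 to 3.36 after glucagon. Without control 2 and glucagon 3 the median was -0.59 with 4 lower and 1 higher, with the sequencing lane as a replicate block 12 were lower, and 5 were lower in the fit of 8 libraries. Ifit1, Ddx58, Ifih1 and Iigp1 were called in all 3 fits. Ifit1, an antiviral RNA-binding protein, had 10.1, 142, 6.86 and 3.62 CPM against 2.09, 2.33, 2.01 and 2.52 CPM. No control fell to the glucagon range, but its change was -4.20 ± 0.89 with control 2 and -1.59 (edgeR adjusted p = 0.041) without control 2 and glucagon 3.

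Macrophage markers were lower too. Of 18 genes of Kupffer cells and macrophages 12 were called lower (66.7%, beside 11.9% of all genes) and 0 higher (edgeR, also 0 by DESeq2, and 1 higher at an unadjusted p under 0.05), with a median of -0.94. But 2 were called lower in the fit of 8 libraries and 8 without control 2 and glucagon 3. In a fit of the 6 libraries left without them 0 were, and that fit called 3.75% of its genes higher and 1.63% lower. Summed over the list the controls had 936, 1438, 713 and 1267 CPM and the glucagon livers 630.0, 550.0, 553 and 680.0 CPM. The groups did not overlap. In bulk liver fewer cells of a type and less RNA per cell cannot be told apart. Lyz2, lysozyme, had 143, 158, 40.8 and 120.0 CPM against 35.9, 30.0, 62.8 and 31.6 CPM, with overlap between control 3 and glucagon 3 (-1.53 ± 0.32). Vsig4, a complement receptor of Kupffer cells, went from 26.0 to 47.0 CPM to 17.1 to 22.1 CPM (-0.94 ± 0.21), and Clec4f, a Kupffer cell lectin, was called only without glucagon 1 among the libraries left out in turn (-0.38 ± 0.15 in all libraries, -0.48 and adjusted p = 0.0436 without it). Lists of other cell types were read beside this. Summed cholangiocyte markers were at 103 to 189 CPM in the controls and 60.1 to 77.6 CPM after glucagon, without overlap, and 1 of 8 was called lower. Stellate cell and fibroblast markers, at 403 to 1305 CPM against 506 to 876 CPM, overlapped, with 1 of 13 called lower, 7 lower at an unadjusted p under 0.05 and a median of -0.47. Of 12 sinusoidal endothelial markers 0 were called in either direction (edgeR and DESeq2, also 0 at an unadjusted p under 0.05), at 573 to 962 CPM against 730.0 to 875 CPM. Their part in the macrophage result was not tested.

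**Figure D4:**
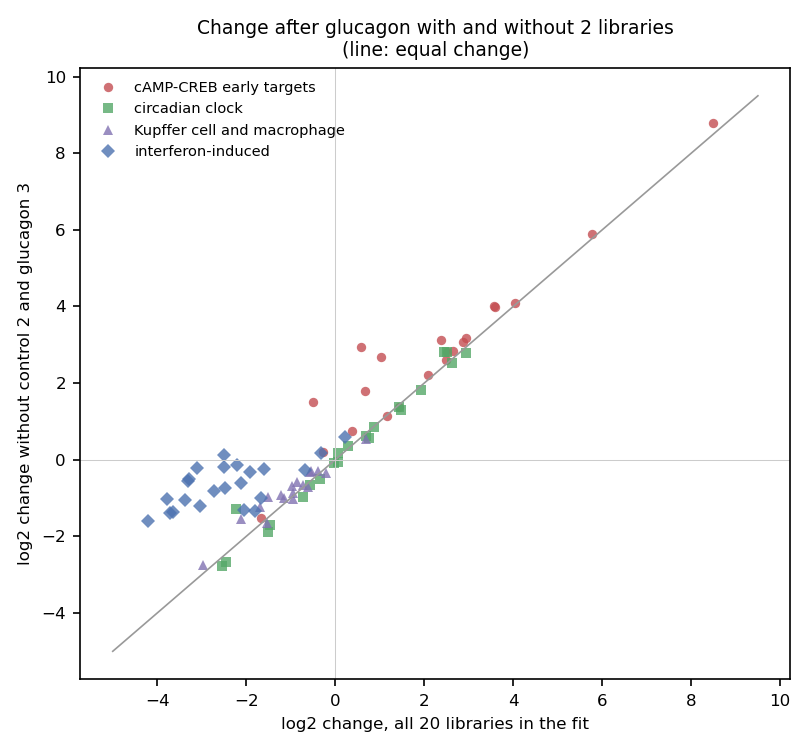
Log2 change of the reported members of 4 gene lists in the fit of 20 libraries (horizontal) and without control 2 and glucagon 3 (vertical), with a line where both are equal. Most early cAMP targets and clock genes lie close to the line, Atf3 and Fos lie above it, and interferon-induced genes, with medians of -2.48 and -0.59, lie well above it on the left.

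Of 25 cell cycle genes 4 were called lower and 1 higher, 1 and 0 in all 3 fits, which is 16.0% and 4.0% beside 11.9% and 9.23% of all genes. The median was -0.43, and without control 2 and glucagon 3 it was -0.12 with 1 lower and 1 higher. Mki67, a marker of cycling cells, had 7.7, 20.4, 11.2 and 5.2 CPM in the controls and 2.98, 2.0, 2.87 and 1.51 CPM after glucagon. Every control was above every glucagon liver (-2.23 ± 0.50, adjusted p = 0.00319). Cdkn1a, which encodes the cell cycle inhibitor p21, was at 5.24, 97.5, 5.1 and 13.3 CPM against 195, 110.0, 162 and 219 CPM. Control 2 lay just under the lowest glucagon liver, and the change of 2.49 ± 0.66 was 4.47 without control 2 and glucagon 3. Ccnd1, cyclin D1, was called lower (-1.92 ± 0.50), with control 2 at 231 CPM, and was not called without that library (-0.61, adjusted p = 0.11).

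Genes were also ranked by the size of change alone. The ranking took genes called in all 3 fits with no overlap between the 8 libraries and at least 5 CPM in the higher group, predicted genes left out. Highest was Tas1r2, a subunit of the sweet taste receptor (chr4:139653538-139670280 in GENCODE M21 on GRCm38), at 0.214, 0.193, 0.294 and 0.0 CPM in the controls and 45.2, 96.3, 83.8 and 85.8 CPM after glucagon. Its controls held 11 counts in all against 4264, a ratio of summed counts of 435 with a 95% counting interval of 243 to 871. Nr4a3, Svop (a synaptic vesicle protein), Akr1b7 (an aldo-keto reductase), the signalling protein Wnt10a, the alpha-2A adrenergic receptor Adra2a, Zdbf2, Nr4a2, Adam2 and Amica1 followed. Control levels of several were near 0, with 2 counts over the controls in Svop, 9 in Wnt10a, 10 in Adra2a and 8 in Adam2, so their log2 changes of 7.07, 6.39, 6.05 and 5.70 are imprecise. For Svop the counting interval of the ratio ran from 47.2 to 1428. Akr1b7 had 0.392 to 2.17 CPM in the controls and 40.4 to 133 CPM after glucagon (6.57 ± 0.74).

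At the other end Rgs16, a regulator of G protein signalling whose liver expression follows glucose and the clock, had 82.1, 26.6, 102 and 359 CPM in the controls and 12.0, 2.46, 2.59 and 3.82 CPM after glucagon. The groups did not overlap, though the controls spanned a wide range (-4.75 ± 0.84, edgeR adjusted p = 0.000427). Arrdc3, an alpha-arrestin (chr13:80883384-80896042), had 158, 52.2, 84.9 and 140.0 CPM against 5.79, 3.36, 8.05 and 4.03 CPM. Its groups were far apart (-4.35 ± 0.33, adjusted p = 1.57e-08). The related Txnip, which curbs glucose uptake, changed by -0.55 ± 0.20 and was called only without control 3 or glucagon 3 (adjusted p = 0.0231 and 0.0246) among the libraries left out in turn. Ihh, the Indian hedgehog ligand, went from 4.87 to 12.4 CPM to 0.517 to 1.01 CPM (-3.46 ± 0.50). Osbpl3, an oxysterol-binding protein relative (-2.81 ± 0.47), Sucnr1, the succinate receptor (-2.68 ± 0.51), the interferon-induced GTPase Ifi47 (-2.80 ± 0.46) and the pseudogene Cyp2d37-ps (-3.24 ± 0.45) were also among the 10 lowest, with Ifit1, Inhbe and Nr1d1. Reads of Cyp2d37-ps can be shared with its Cyp2d relatives.

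**Figure D5:**
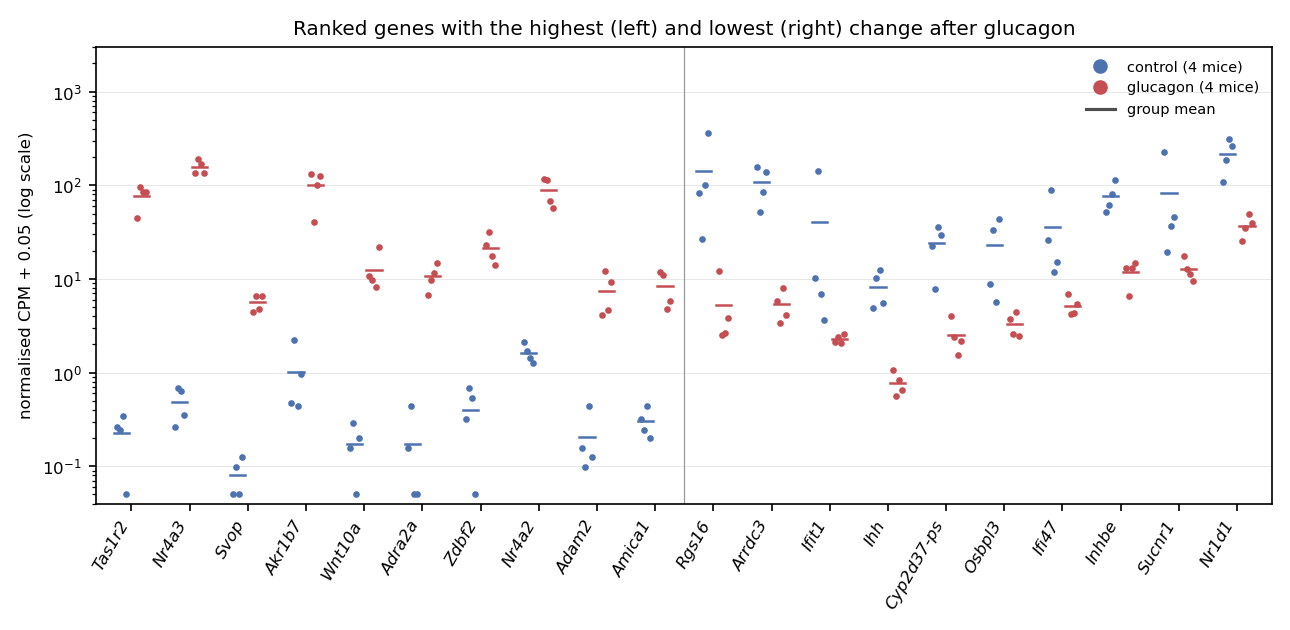
Normalised CPM (plus 0.05, log axis) of the 10 genes with the highest (left) and the 10 with the lowest (right) change in each of the 4 control and 4 glucagon livers, with lines at the group means. Controls of the left genes lie near the bottom of the axis, and the controls of Rgs16 range from 26.6 to 359 CPM.

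Where T3 was given with glucagon, the levels of several of these genes lay elsewhere than after glucagon alone. This comparison uses the glucagon libraries again, so a library that is high or low enters both changes, and 22.5% of all genes were called in it, 12.4% higher and 10.2% lower with both hormones. Ppargc1a stood at 10.8 ± 2.05 CPM in control, 178 ± 20.6 after glucagon and 14.1 ± 2.46 with both hormones (SD, n = 4 each), and its change from glucagon to both was -3.65 ± 0.20. Ppp1r3g stood at 23.4 ± 14.4, 480.0 ± 217 and 23.7 ± 10.8 CPM, with a change of -4.33 ± 0.49. Sik1, by contrast, had 52.3 ± 23.0, 622 ± 212 and 486 ± 62.7 CPM, and its change of -0.36 ± 0.29 was not called (edgeR adjusted p = 0.426). Among genes that fell after glucagon, Arrdc3 had 109 ± 48.8, 5.31 ± 2.09 and 113 ± 22.1 CPM (4.41 ± 0.33 from glucagon to both), Cyp7a1 95.5 ± 19.5, 20.1 ± 19.3 and 382 ± 123 CPM (4.26 ± 0.49), and Ihh 8.22 ± 3.68, 0.732 ± 0.22 and 0.465 ± 0.113 CPM (not called).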

How the data were processed

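RNA-seq counts of liver were analysed for 20 libraries, 4 in each of 5 groups taken from the treatment label. Per the labels' protocols, the kits were from Qiagen for RNA and Lexogen for libraries. The authors deposited whole-number counts for each gene symbol. The submitters' processing notes name HTSeq and the build mm10. The aligner, annotation, strand setting and HTSeq version are not given in those sources, so reads of a gene and its antisense partner may not be separated. The files hold 13319 symbols, each with at least 20 counts in some library, so rarer genes could not be studied. Of these 12113 matched GENCODE M21 names.

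Counts were filtered with filterByExpr (minimum count 10, minimum total 15; 412 genes left out), scaled by TMM and tested with edgeR 4.0.16 in R 4.3.3 (quasi-likelihood, 5 group means, 15 residual degrees of freedom, Benjamini-Hochberg over 12907 genes, threshold 0.05). Alternatives were RLE factors, no filter, DESeq2 1.42.0, limma 3.58.1 voom with quality weights by group, the 8 libraries alone, the sequencing lane as a block, control 2 and glucagon 3 left out together, and each library left out in turn. The fit was also run on counts simulated with a spread shared by all groups. That run cannot show how the wider spread of the controls affects the calls.

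Per the labels, replicate numbers mark the sequencing lane, shared by same-numbered control and glucagon libraries. The correlation of same-numbered deviations from the group means was 0.221, -0.318, -0.248 and 0.197 for numbers 1 to 4. Each mouse is 1 replicate. Totals limit precision as 3 counts equal 0.145 to 0.302 CPM. Counting intervals are exact binomial and cover counting error only.

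Members, lists, the panel and the promoters shown were chosen with earlier results of these data known. Genes were named from the 10 highest and 10 lowest changes by the ranking rule in the text, the 3 members of smallest p of each list described, and a panel of 46 genes, not all of which are described. Atf3, Fos, Btg2, Egr1, Junb, Gem, Tdo2, Trib3, Fbp1, Acly, Ccnd1 and further list members outside this rule were named after their values were seen. Some genes that were tested and counted in the lists are not reported here one by one.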

Additional observations from a re-analysis of the deposited data

Results flagged for a closer look

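Each of the 157 named genes was searched in both groups for a single library whose gap to its neighbour exceeded Dixon's 95% limit as a share of the group's range. This marked 34 of 314 groups of 4 (10.8%). The limit marks about 1 in 20 only for independent values with a normal spread. Unlogged CPM of related genes in the same libraries are neither, so no excess over chance can be read from this share. No cause was tested.

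Control 2 was the highest control in 11 of these. It held 142 CPM of Ifit1 (3.62 to 10.1 in the others), 97.3 of Ddx58 (17.8 to 30.5), 49.8 of Ifih1 (12.1 to 18.3), 231 of Ccnd1, 97.5 of Cdkn1a, 143 of Col3a1, 48.8 of Fgf21 and 346 of Igfbp1, and of the muscle genes 6.52 of Myh2, 6.86 of Actn2 and 11.0 of Mybpc1. Control 1 was highest for Sucnr1 (226 CPM against 19.6 to 46.2) and Lepr (8.77 CPM), and control 3 for Adam2 (0.392 CPM, a few counts).

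Glucagon 3 was the highest glucagon liver for the muscle genes Myh2 (89.5 CPM against 0 to 1.31), Actn2 (39.9) and Mybpc1 (60.2), the pancreatic enzymes Ctrb1 (3.88) and Cela2a (2.8), the adipocyte genes Plin1 (8.33) and Adipoq (13.1), and Ppp1r3c (11.7). Glucagon 1 was highest for Rgs16 (12.0 CPM against 2.46 to 3.82), Acly (1928), Arrdc4 (9.43), Dgat1 (113), Gpd2 (87.9), Mt1 (450.0), Slc22a3 (37.9) and Ass1 (1.49). Glucagon 2 was highest for Cebpb (645) and lowest for Nr0b2 (7.37), and glucagon 4 was highest for Cyp7a1 (48.8 CPM against 7.24 to 12.3) and Srebf1 (1414).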

How the results depend on the processing

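The count of called genes varied with the fit, and the cause was not tested. Against 2732 genes (1191 higher, 1541 lower), edgeR on the 8 libraries alone called 976 (613 and 363), limma voom with quality weights 1304 (718 and 586), the replicate block of sequencing lane on the 8 libraries 725 (515 and 210), and the 6 libraries left without control 2 and glucagon 3, an alternative chosen after seeing the data, 659 (459 and 200). The replicate block on 20 libraries (2686), RLE factors (2676), no filter (2739), DESeq2 (3039) and leaving out both libraries (2182) stayed within 1.5 times. Leaving out single libraries gave 1988 to 3760 calls, 948 to 1656 higher and 1040 to 2104 lower. Over the 815 named genes and tested list members, no called gene changed sign under these alternatives, except 1 interferon-induced gene, Oas1a, in both fits without control 2 and glucagon 3. The block on 20 libraries ended 16 calls among these 815 genes and added 16. Those it ended include Gclc (-0.59, adjusted p = 0.0508), Col3a1 (-1.39, 0.062), Tdo2 (-0.80, 0.0501) and Thra, and those it added include Cps1. On the 8 libraries it ended 123 and added 3. Among the 91 genes named by rule that were called in all 3 fits, leaving out 1 library ended the calls of Pde4b and of Bcl6, a repressor of growth hormone targets (-1.23 ± 0.39), which was not called without control 4 (-1.01, 0.0892), glucagon 1 (-1.27, 0.0516), glucagon 2 (-1.09, 0.0922) or glucagon 4 (-1.21, 0.0691). With 4 mice a group and wide control spread, smaller changes may go undetected, and levels near 0.145 to 0.302 CPM rest on about 3 counts.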
